A study of Pseudozyma hubeiensis with 12 samples.

Results

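The starvation response that depends on the sugar was measured in the basidiomycete yeast Pseudozyma hubeiensis strain BOT-O as the difference between 2 changes. The change from exponential growth to nitrogen starvation on xylose was set against the same change on glucose, over all 12 libraries and every locus with enough reads, 5805 of 6689. On the log2 scale a positive difference, called a positive interaction here, is a starvation change that was higher on xylose, and a negative interaction is one that was lower on xylose. The threshold for a call was an adjusted p of 0.05 (edgeR's quasi-likelihood test, Benjamini-Hochberg adjustment over all 5805 genes).

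The 4 groups were exponential glucose, starved glucose, exponential xylose and starved xylose, each with 3 biological replicates named A, B and C. All cultures shared the strain, a yeast nitrogen base medium made without ammonium sulfate and then given ammonium sulfate so that carbon outweighed nitrogen 80 to 1 by weight at the start, quenching in liquid nitrogen, and poly-A selected stranded libraries. The labels' growth protocol names glucose for all 12 samples, while the sugar label names xylose for 6 of them, and the sugar label was followed. Exponential growth is time point 1 and starvation time point 2 in every culture, so phase and culture age cannot be told apart, and the cultures' sugar and nitrogen levels at each time point are not given in the labels.

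When nitrogen runs out, yeasts stop building ribosomes, scavenge other nitrogen sources, recycle their own proteins through the vacuole and send sugar carbon into lipids and storage carbohydrate. P. hubeiensis and its smut fungus relatives then secrete mannosylerythritol lipids (MEL), glycolipid surfactants. Glucose enters glycolysis directly, whereas xylose is reduced to xylitol, oxidised to xylulose, phosphorylated and passed through the pentose phosphate pathway.

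Sequencing gave 15130232 to 32374467 counts per library, and 615 of the 6689 loci had no reads in any of them. Replicates of the starved groups were less alike than those of the exponential groups. The median SD of log2 CPM (a gene's counts for every 1e6 counts of its library) over genes was 0.0754 in exponential glucose, 0.0832 in exponential xylose, 0.132 in starved xylose and 0.173 in starved glucose.

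Of the 5805 genes, 2218 (38.2%) were called for the interaction, 1262 (21.7%) with a positive and 956 (16.5%) with a negative difference, and 541 (9.32%) were called with a difference of 2-fold or more. Without starved xylose replicate A, 49.2% of the calls were positive, against 56.9% with all libraries. The median interaction over all genes was 0.03, with quartiles of -0.30 and 0.41. The 21.7% and 16.5% are the shares to set beside the list counts below. Starvation itself changed 4714 genes (81.2%) on glucose and 4717 (81.3%) on xylose, and 3996 genes changed in the same direction on both sugars. Of all genes 40.1% rose and 41.1% fell on glucose, and 40.6% rose and 40.6% fell on xylose. Across the 5805 genes the glucose and xylose responses, which share no library, had a Pearson r of 0.881 and a Spearman rho of 0.887, given as a description, since genes are not independent replicates.

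Most of the sugar-dependent responses were differences of size, not of direction. Of the 2218 calls, 854 (38.5%) changed in the same direction on both sugars and more on glucose, and 597 (26.9%) did so and more on xylose. Another 310 (13.98%) were called as changed on glucose alone, 301 (13.6%) on xylose alone and 9 on neither. The last count was 3 without exponential glucose A or exponential xylose B, 4 without exponential glucose C or starved glucose A, and 5 without exponential xylose A or starved xylose A or B. The remaining 147 (6.63% of the calls, 2.53% of the genes tested) were called on both sugars with opposite directions.

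**Figure D1:**
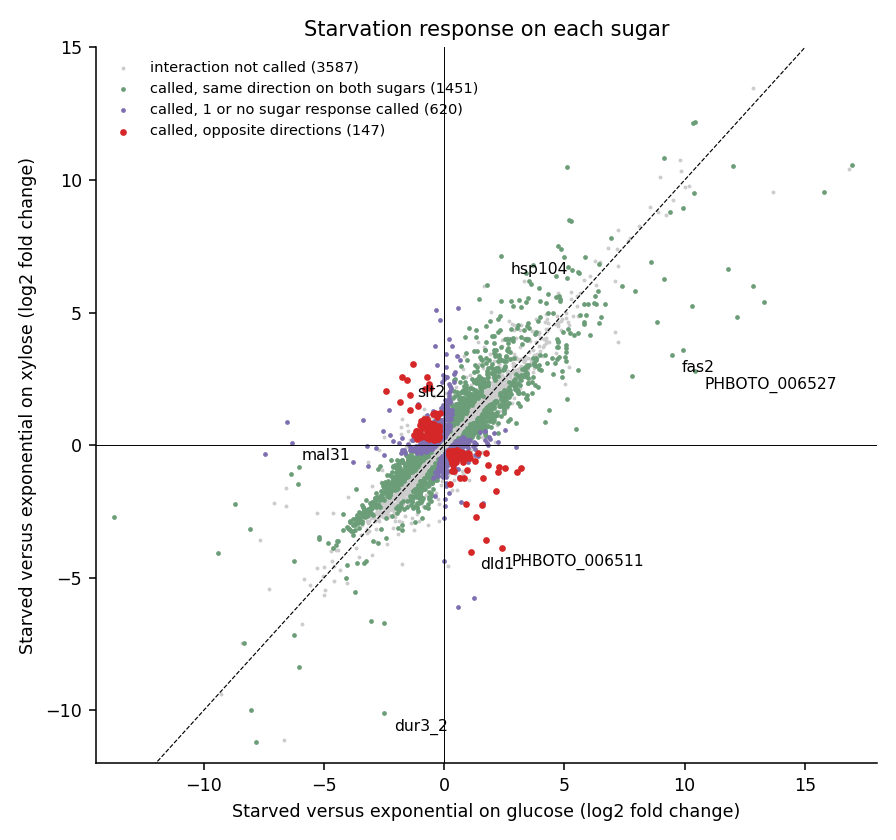
Starvation change of each of 5805 genes on glucose (horizontal axis) and on xylose (vertical axis), both as log2 fold change of starved over exponential cultures, n = 3 libraries a group, with equal changes on the dashed line. Most genes lie near the line (Pearson r 0.881), and the 147 opposite movers fill the upper left and lower right parts, from slt2 to PHBOTO_006511.

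The cultures on the different sugars stood apart mainly once starved. Among the 2218 calls, 1207 (54.4%) differed between the sugars in the starved groups and not in the exponential groups, 407 (18.4%) in the exponential groups alone, and 326 (14.7%) in both phases with the direction turned over. Both phases with the same direction accounted for 92 calls (4.15%), and 186 (8.39%) passed in neither phase.

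The 79 genes that fell on glucose and rose on xylose, 61 of them annotated, had median changes of -0.56 on glucose and 0.53 on xylose (log2), and 8 of them moved at least 2-fold both ways. The sugars differed for 51 of the 79 in starvation alone, with xylose higher, and 21 were lower on xylose in exponential growth and higher on it in starvation.

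slt2 (PHBOTO_000417), the mitogen-activated protein kinase of the cell wall integrity pathway, stood out among the annotated genes of this direction with a group mean of at least 20 CPM, as the one whose smaller change of both was the largest. On glucose its CPM in replicates A, B and C went from 477, 514 and 548 in exponential growth to 138, 168 and 223 in starvation. On xylose it went from 128, 143 and 196 to 986, 843 and 758. The exponential glucose and starved xylose libraries are thus the high ones, and no library of the starved group overlaps those of its exponential group on either sugar. The log2 change was -1.54 ± 0.17 (SE) on glucose and 2.47 ± 0.18 on xylose, an interaction of 4.01 ± 0.25 (adjusted p = 1.12e-08, edgeR).

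pcl1 (PHBOTO_002553) encodes a cyclin of the kinase PHO85, known from baker's yeast. It read 201, 199.8 and 185 CPM on glucose and 222, 218 and 217 CPM on xylose in exponential growth. In starvation it read 104, 86.5 and 107 CPM on glucose and 376, 381 and 490.2 CPM on xylose. The starved groups lie on either side of the exponential ones with no overlap, an interaction of 1.90 ± 0.15 (adjusted p = 1.41e-07).

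Histone genes were among those that fell on glucose and rose on xylose. htb2 (PHBOTO_001987) encodes H2B and hta1 (PHBOTO_001988), the next locus number, encodes H2A. For htb2 exponential libraries held 3438, 3448 and 3300 CPM on glucose and 2923, 2977 and 2915 CPM on xylose. Starved libraries held 2023, 1924 and 1896 CPM on glucose and 5605, 5011 and 4735 CPM on xylose, so all starved xylose libraries were above all others and all starved glucose libraries below. The interaction was 1.60 ± 0.12 for htb2 (adjusted p = 9.67e-08) and 1.61 ± 0.13 for hta1, which fell by 0.40 on glucose and rose by 1.21 on xylose. The H3 gene hht1_4 moved the same way (-0.24 and 1.18). The H4 gene hhf1 and the linker histone gene hho1 rose on xylose (1.42 and 1.27), with changes of -0.15 and 0.08 on glucose that missed the threshold. A second H3 gene, hht1, rose on both sugars (1.15 and 1.5026), and its interaction of 0.35 had an adjusted p of 0.0475 that passed 0.05 only narrowly and missed it under 11 of 18 other settings. Copies of histone genes may share reads, so their separate levels are uncertain.

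Mitochondrial protein folding and import formed another block of the opposite movers. hsp60 (PHBOTO_002085), the chaperonin of the mitochondrial matrix, read 361, 367 and 344 CPM in exponential glucose and 156, 171 and 271 CPM in starved glucose. On xylose it read 222, 274 and 219 CPM in exponential growth and 334, 404 and 567 CPM in starvation. The phases do not overlap on either sugar, and the interaction was 1.71 ± 0.27 (adjusted p = 0.000185). Its cofactor hsp10 (PHBOTO_002086) fell by 0.90 on glucose and rose by 0.68 on xylose. The import motor HSP70 ssc1 (-0.9992, 0.52), its nucleotide exchange factor mge1 (-0.74, 0.9986), the J-protein mdj1 (-0.46, 1.19) and the inner membrane channel tim23 (-0.71, 0.29) moved both ways as well. So did the presequence peptidase oct1 (interaction 1.29), the phosphate carrier mir1 (0.79), the lipoyl synthase lip5 (0.96), the ubiquinone enzyme coq1 (1.35) and the bc1 complex subunits rip1 (0.66) and qcr8 (0.69). Of the 79 loci, 17 (21.5%) carry a product name with the word mitochondrial or mitochondria, against 386 of the 5805 genes tested (6.65%) and 5 of the 68 opposite movers in the other direction (7.35%). The word was searched after the genes had been seen. Of the 386, 141 had a positive and 29 a negative interaction (median 0.23), so the positive lean was not confined to the 79.

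Other members of the 79 include genes of the cell surface and of chromatin. The chitin deacetylase cda2_3 (PHBOTO_000194), which converts wall chitin to chitosan, went from 755, 864 and 726 to 407, 438 and 575 CPM on glucose. On xylose it went from 238, 224 and 306 to 1834, 1195 and 1535 CPM, an interaction of 3.29 ± 0.23, and a second copy, cda2_2, had 1.36. gfa1, the first enzyme of amino sugar and chitin precursor synthesis, had 1.06. The tyrosinase-domain gene PHBOTO_006317 (2.90), the phosducin PHBOTO_005752 (2.95), tpo3_4, a polyamine transporter (2.72), bdf1, a bromodomain factor (1.40), nhp6b, a high-mobility-group chromatin protein (1.35), and pby1 (1.80) belong to the same class. For PHBOTO_005752 the exponential and starved libraries overlap on glucose. The largest interaction of the class among loci of unknown function was 4.37 at PHBOTO_005877, which read 18.5, 27.9 and 45 CPM in starved glucose and 257, 202 and 156 CPM in starved xylose.

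**Figure D2:**
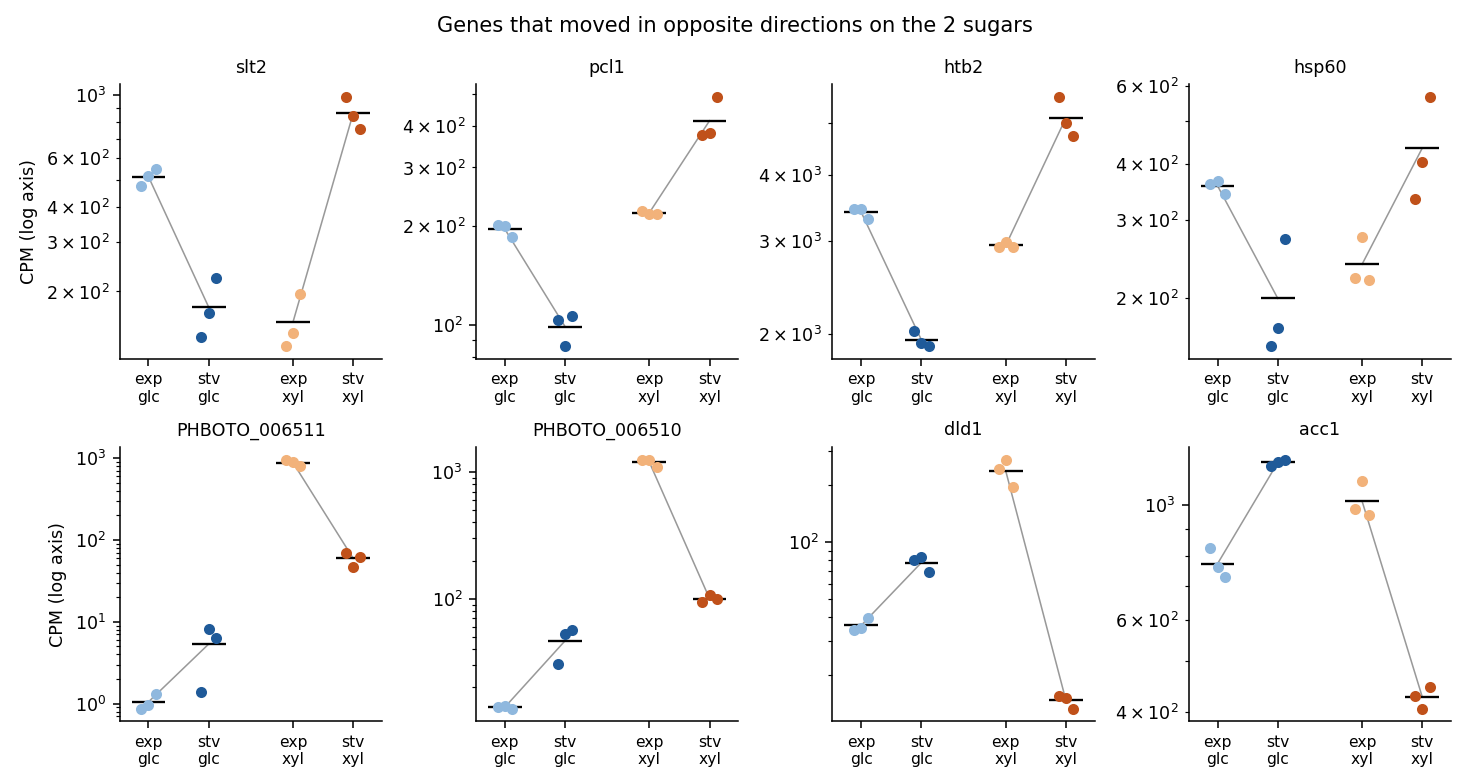
CPM per library on a log axis for 8 opposite movers, in exponential (exp) and starved (stv) cultures on glucose (glc) and xylose (xyl), with a bar at the mean of 3 libraries and a grey line joining the phases on each sugar. The lines cross in direction in every panel, down on glucose and up on xylose in the top row, and the reverse in the bottom row, with acc1 changing the least there (a mean of 1018 to 427 CPM on xylose).

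The 68 genes that rose on glucose and fell on xylose, 57 of them annotated, had median changes of 0.57 on glucose and -0.46 on xylose, and 8 moved at least 2-fold both ways. Of the 68, 28 differed between sugars in starvation alone, with xylose lower. Another 17 were higher on xylose in exponential growth and lower on it in starvation, 13 were higher on xylose in exponential growth alone and 9 were higher on xylose in both phases.

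A pair of neighbouring loci annotated as sugar phosphate enzymes had the largest differences. PHBOTO_006511, annotated as a mannose-6-phosphate isomerase, read 961, 891 and 795 CPM in exponential xylose and 69.8, 47.1 and 61.7 CPM once starved there. On glucose it stayed far lower, at 0.865, 0.97 and 1.31 CPM and then 1.41, 8.28 and 6.36 CPM. The exponential xylose mean was 840.2 times the exponential glucose mean, and the interaction was -6.28 ± 0.50 (adjusted p = 1.74e-07). PHBOTO_006510, annotated as a transaldolase of the pentose phosphate pathway, went from 1241, 1255 and 1093 to 93.9, 106 and 100.2 CPM on xylose. On glucose it went from 14, 14.3 and 13.5 to 30.7, 52.6 and 56.4 CPM, an interaction of -5.32 ± 0.23 (adjusted p = 1.29e-10). Both loci were thus highest in exponential xylose, and the starved xylose libraries still lay above the starved glucose ones.

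dld1 (PHBOTO_001232), the mitochondrial D-lactate dehydrogenase, changed places between the sugars. It read 34.4, 35 and 39.5 CPM in exponential glucose and 80.3, 83.6 and 69.6 CPM in starved glucose. It read 242, 271 and 195 CPM in exponential xylose and 15.5, 15.2 and 13.2 CPM in starved xylose. The xylose libraries were the highest before starvation and the lowest in it, and the interaction was -5.12 ± 0.18 (adjusted p = 8.42e-12).

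Several carriers and polyol or lipid enzymes moved the same way. The sorbitol dehydrogenase sor1 (PHBOTO_000419) rose by 2.54 on glucose and fell by 0.85 on xylose, and the STL1-type sugar transporter stl1_6 (PHBOTO_004810) rose by 1.62 and fell by 1.25. The amino acid transporter PHBOTO_000798 read 186, 186 and 137 CPM in starved glucose and 13.4, 12.6 and 13.8 CPM in starved xylose, against 23.7 to 37.1 CPM in the exponential libraries. Acetyl-CoA carboxylase, acc1 (PHBOTO_004877), makes malonyl-CoA for fatty acids and averaged 772 ± 50.5 CPM (SD, n = 3) in exponential glucose and 1209 ± 16.8 in starved glucose. On xylose it averaged 1018 ± 82.6 CPM in exponential growth and 427 ± 20.8 in starvation, an interaction of -1.90 ± 0.12 (adjusted p = 1.95e-08). Also in this class were the inositol-3-phosphate synthase ino1 (0.24 on glucose, -1.45 on xylose), the urea transporter dur3 (0.84, -1.22), the ferric reductase fre3 (3.18, -0.86), the cytochrome P450 reductase ncp1 (0.96, -0.50), the dihydroxyacetone kinase dak2 (0.92, -0.37), the acyltransferase-domain gene PHBOTO_002252 (2.29, -0.84), the dehydrogenase PHBOTO_006576 (0.89, -2.22) and the glycoside hydrolase PHBOTO_005943 (1.83, -0.74). The authors' deposited table gives 152 loci with opposite, significant changes on the sugars, and 141 of the 147 are among them.

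Most heat shock chaperones had a higher starvation change on xylose. Of 28 tested members of the list, 17 had a positive and 3 a negative interaction, 4 of the 17 being the opposite movers hsp60, hsp10, ssc1 and mdj1. The median interaction was 0.77 against 0.03 over all genes, with median changes of -0.14 on glucose and 0.76 on xylose. hsp104 (PHBOTO_006490), the disaggregase, read 73.5, 97.3 and 54.4 CPM in exponential glucose and 147, 272 and 744 CPM in starved glucose. On xylose it went from 22.7, 22 and 19.1 to 1656, 2400 and 4802 CPM, an interaction of 4.75 ± 0.67 (adjusted p = 5.68e-05). All starved xylose libraries exceeded all starved glucose ones, although the starved libraries of each sugar spread widely. The cytosolic HSP70 ssa4 rose by 1.30 on glucose and by 4.09 on xylose. The HSP90 gene hsp82 and its co-chaperones sti1 and aha1 had interactions of 1.81, 1.98 and 1.78, and the J-protein ydj1_2 had 1.75. The 3 negative ones were hsp12, a small membrane-associated stress protein that rose on both sugars (4.69 on glucose, 3.24 on xylose), and the prolyl isomerases cpr6_2 and cpr2.

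Replicate C stood high for these genes on both sugars. Among the 17, starved glucose replicate A was the lowest library of its group for 15 and C the highest for 17. In starved xylose, A was the lowest for 14 and C the highest for 13. The summed level of the 17 genes was 4346, 5551 and 9690 CPM in starved glucose A, B and C and 14710, 18060 and 26840 CPM in starved xylose. In the exponential groups it ran from 6659 to 8808 CPM. The starved xylose sums all lay above the starved glucose sums, which the choice of genes with a positive interaction favours. Summed over the whole chaperone list, starved glucose A, B and C held 7253, 8448 and 12500 CPM. Starved xylose A, B and C held 17460, 20930 and 29550 CPM over the same list. The number of positive calls was 17 with any 1 of the 12 libraries left out. The part of the replicate spread in the size of single interactions was not tested.

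**Figure D3:**
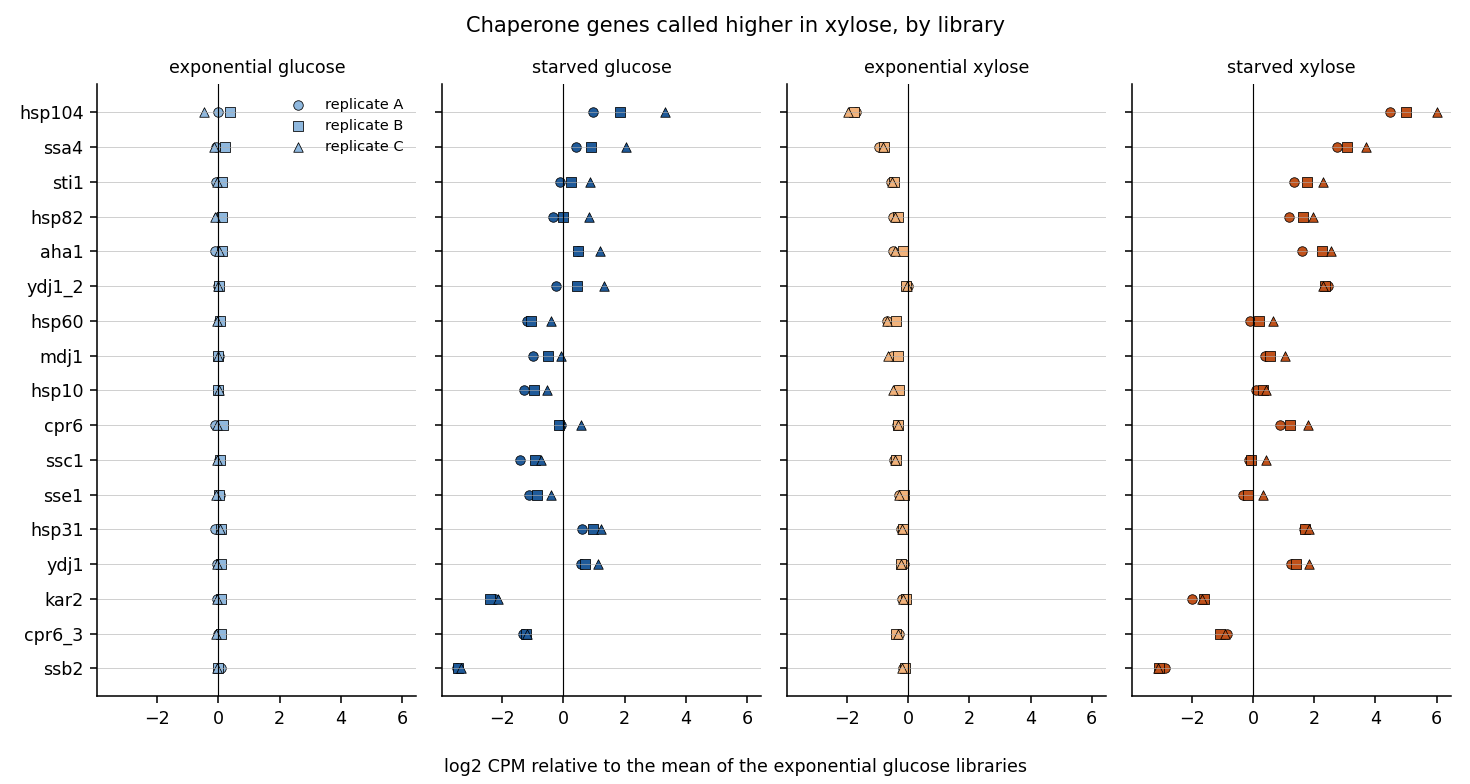
log2 CPM of the 17 chaperone genes with a positive interaction, relative to the mean of exponential glucose, 1 panel per group and 1 marker shape per replicate. In starved glucose replicate C lies farthest to the right for all 17 genes, and in starved xylose most genes lie to the right of their starved glucose values, hsp104 the farthest at 4.46 or more.

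Nearly all cytosolic ribosomal protein genes fell in starvation on both sugars, and most fell less on xylose. Of 78 cytosolic ribosomal protein genes tested, 71 (91.0%) had a positive interaction and none a negative one, with a median of 0.73. All 71 were among the 76 that fell on both sugars, and the list's median change was -3.30 on glucose and -2.53 on xylose. None of the 78 differed between sugars in exponential growth (9.94% of all genes were higher and 10.8% lower on xylose there), and 72 were higher on xylose in starvation (23% of all genes). Summed over the list, exponential libraries held 172700 to 189200 CPM. Starved glucose A, B and C held 20770, 22620 and 24380 CPM, and starved xylose held 39020, 31610 and 30250 CPM, with no overlap. rpl25 went from 1465, 1510 and 1441 to 445, 300 and 301 CPM on xylose and from 1531, 1504 and 1539 to 134, 167 and 173 CPM on glucose (1.19 ± 0.19, adjusted p = 0.000191). Of the other two, rpl40a, a fusion of ubiquitin and a ribosomal protein, rose on both sugars (1.01 and 0.89) with an interaction of -0.13 that was not called. The copy rpl19a_2, which averaged under 1 CPM in every group, was not called on glucose (-0.27) or for the interaction (-1.77) and fell on xylose (-2.04).

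Neighbouring functions followed with smaller differences that depended more on single libraries. Of 94 ribosome biogenesis genes, 55 had a positive interaction and none a negative one (median 0.48), and the count was 26 without starved xylose A, 35 without exponential glucose A and 33 without exponential xylose C. Of 47 mitochondrial ribosomal protein genes, 30 were positive and none negative (median 0.54), and 17 were called without starved xylose A. Of 77 amino acid biosynthesis genes, 33 were positive and 6 negative (median 0.32), and 21 were positive without starved xylose A, and 3 negative without exponential glucose B or exponential xylose B. The branched-chain aminotransferase bat1 (PHBOTO_000729) rose by 0.68 on glucose and by 2.99 on xylose. Translation factors and tRNA synthetases, with median changes of -1.41 on glucose and -1.43 on xylose, had 9 positive and 3 negative calls of 67, or 13.4% and 4.48%, below the shares among all genes. The positive count was 5 without exponential glucose A or B or exponential xylose C, and 4 without starved xylose A.

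Mitochondrial energy metabolism also leaned to xylose. In the TCA cycle 11 of 21 genes had a positive interaction and none a negative one (median 0.40), among them fumarase fum1 (1.30), both subunits of isocitrate dehydrogenase, idh1 (1.05) and idh2 (1.04), and the succinate dehydrogenase subunits sdh1 (0.87) and sdh2 (0.86). Citrate synthase cit1 (0.08) and aconitase aco1 (0.25) were not called. In oxidative phosphorylation 17 of 44 were positive and none negative (median 0.30). The alternative oxidase PHBOTO_002482, which passes electrons from ubiquinol to oxygen past the proton-pumping complexes, read 856, 1047 and 804 CPM in exponential glucose and 1681, 2496 and 3243 CPM in starved glucose. On xylose it read 98.3, 99.5 and 116 CPM and then 4793, 4347 and 5156 CPM, an interaction of 4.06 ± 0.26 (adjusted p = 1.71e-08). It was thus lowest in exponential xylose and highest in starved xylose. The alternative NADH dehydrogenase nde1_2 had 1.77, and the ATP synthase subunits atp1 and atp2 had 0.40 and 0.50, of which atp1 was not called without starved xylose A (0.32).

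Gluconeogenesis and glyoxylate cycle genes were mostly lower on xylose while cells grew. Of 10 genes, 5 had a positive interaction and none a negative one. In exponential growth 7 were lower on xylose (10.8% of all genes), and in starvation 2 were higher on xylose (20%, against 23% of all genes) and 3 lower. pck1 (PHBOTO_005250), the phosphoenolpyruvate carboxykinase that opens gluconeogenesis, went from 116, 119 and 154 to 2923, 2264 and 2712 CPM on xylose. On glucose it went from 498, 596 and 463 to 833, 1364 and 1650 CPM, an interaction of 3.04 ± 0.28 (adjusted p = 7.34e-07). Fructose-1,6-bisphosphatase fbp1 had 1.58, isocitrate lyase icl1 0.75 and malate synthase mls1 0.61. The mitochondrial NAD-dependent malic enzyme mae1 (PHBOTO_002234) read 357, 553 and 743 CPM in starved glucose and 1373, 1202 and 1323 CPM in starved xylose, from 524, 591 and 449 and 101, 109.9 and 148 CPM in exponential growth, an interaction of 3.36 ± 0.29.

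Sugar breakdown leaned the other way. In the pentose phosphate pathway 7 of 13 genes had a negative interaction and 1 a positive one (median -0.50), including the NADPH-forming dehydrogenases gnd2 (-0.91) and zwf1 (-0.87), the epimerase rpe1 (-0.76) and the transketolase tkl1 (-0.44, -0.37 and not called without exponential xylose B). gnd2 read 2242, 2499 and 2206 CPM in exponential xylose, above the 1477, 1426 and 1395 CPM of exponential glucose, and fell on both sugars to 954, 1083 and 1042 and 1185, 1245 and 1142 CPM. In glycolysis 5 of 14 were negative and 3 positive (median -0.21), or 35.7% and 21.4%, against 16.5% and 21.7% of all genes. Pyruvate kinase cdc19 (-0.90), phosphoglucose isomerase pgi1 (-0.90) and the phosphofructokinase pfk1 (-0.82) were negative, and pyruvate decarboxylase pdc1 (1.13) was positive. Of 5 xylose catabolism genes, xylulokinase xks1 (PHBOTO_001564) read 636, 650 and 611 CPM in exponential xylose and 118, 129 and 119 CPM in starved xylose, against 10.6 to 28.6 CPM on glucose, an interaction of -1.70 ± 0.23. The xylose reductases xr1 and xr3 had -1.07 and -0.70. Xylitol dehydrogenase xyl2 fell less on xylose (0.77), and ara2 was not called (-0.03).

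The list of fatty acid synthesis and NADPH supply genes split between its members, with 4 negative and 3 positive interactions of 11. These counts include fas2 (-6.04), a locus of the run described below, and the NAD-dependent malic enzyme mae1 above. Besides acc1, the ATP-citrate lyase acl1 (-1.13) and the fatty acid synthase fas1 (-0.99) were negative, while the desaturase ole1 (1.42) and the mitochondrial-type synthase cem1 (1.88) were positive. acl1 read 2251, 2088 and 2172 CPM in starved glucose and 1139, 1053 and 1149 CPM in starved xylose, against 2115, 2162 and 1914 CPM in exponential glucose and 2241, 2452 and 2239 CPM in exponential xylose. Of 16 triacylglycerol and lipid droplet genes, 7 were negative and 4 positive, and without exponential glucose B these counts were 3 and 2 (4 negative without exponential xylose B). Of 59 beta-oxidation and peroxisome genes, 10 were positive and 4 negative, or 16.9% and 6.78%, below the shares among all genes in both directions. These counts were 6 positive without exponential xylose A, and 2 and 7 negative without exponential glucose A and starved glucose C.

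The 5 genes of MEL synthesis rose on both sugars, and 4 of them rose less on xylose. Of the 5, 2 were already higher on xylose in exponential growth, and all 5 were lower on it in starvation. The acyltransferase mac1 (PHBOTO_003090) went from 1.13, 0.94 and 1.07 to 703, 603 and 475 CPM on glucose and from 4.55, 3.86 and 4.82 to 329, 365 and 336 CPM on xylose, an interaction of -2.87 ± 0.23 (adjusted p = 1.74e-07). The second acyltransferase mac2 had -2.10 ± 0.19 and the acetyltransferase mat1 -0.76 ± 0.16. The erythritol mannosyltransferase emt1, which makes the sugar core, read 153, 124 and 151 CPM in starved glucose and 18.7, 21.1 and 23.1 CPM in starved xylose. Its interaction of -1.68 ± 0.48 had an adjusted p of 0.0117, or 0.0511 without exponential xylose C. The exporter mmf1 had -0.49 ± 0.28 and was not called (adjusted p = 0.179). Summed over the 5 genes, starved glucose libraries held 1261, 1129 and 1002 CPM and starved xylose libraries 531.8, 623 and 569 CPM, with no overlap.

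A run of 18 loci with consecutive numbers, PHBOTO_006510 to PHBOTO_006527, had interactions at least 2-fold negative throughout, 16 of them called by edgeR. The run was picked out after its values were seen, and locus numbers stand in for positions, which the table does not give. It begins with the transaldolase and isomerase loci above. The inner 13 loci, from PHBOTO_006515, rose on both sugars, and their starved glucose means were 19.7 to 188 times the starved xylose means. Their annotations include the fatty acid synthase subunit fas2, the transporter ste6_3, the acetyltransferase PHBOTO_006519, the oxygenases PHBOTO_006516, erg11_3 and erg25_2, the reductase gre2_2 and the glycosyltransferase PHBOTO_006524. In exponential growth 2 of the 13 differed between sugars, and no mean exceeded 99.5 CPM.

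fas2 is the clearest of these. It read 13.1, 14.8 and 12.9 CPM in exponential glucose and 9535, 9138 and 9992 CPM in starved glucose. On xylose it read 20.6, 21.3 and 19.2 CPM and then 205, 235 and 211 CPM, a rise on both sugars with an interaction of -6.04 ± 0.14 (adjusted p = 8.38e-14). PHBOTO_006527, of unknown function, reached 6999, 6375 and 5676 CPM in starved glucose and 32.6, 37.9 and 30.9 CPM in starved xylose, from 4.21 to 5.30 CPM in exponential libraries. For PHBOTO_006524 each exponential group held 2 counts, so its fitted change depends on the prior count. Its starved libraries read 4303, 3464 and 3167 CPM on glucose and 39.5, 46.1 and 35.2 CPM on xylose, and the adjusted p of 0.0123 was 0.0777 without exponential xylose A and 0.0801 without exponential xylose C. erg11_3 and gre2_2, the 2 loci not called by edgeR (adjusted p = 0.118 and 0.0859), also had 3 counts or fewer in an exponential group. Both were called by DESeq2's Wald test (adjusted p = 0.000747 and 0.00262) and by limma voom (adjusted p = 4.95e-06 and 0.000141). Beyond the run, PHBOTO_006509 had -0.20 and was not called. PHBOTO_006528 averaged under 1 CPM in every group, and its interaction of -0.98 ± 1.115 was not called either.

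**Figure D4:**
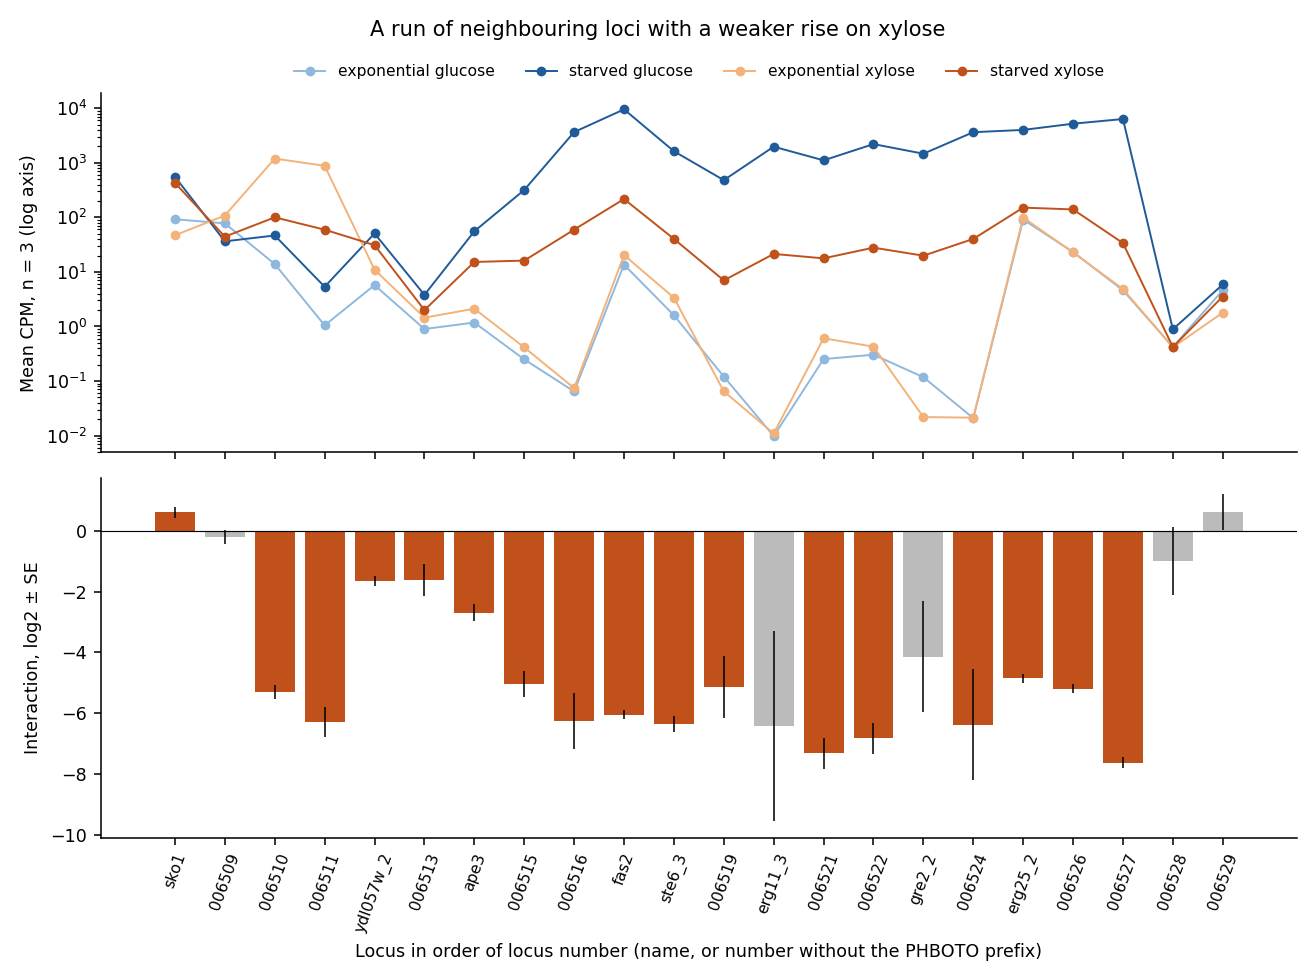
Mean CPM of 3 libraries per group on a log axis (top) and the interaction with its SE (bottom, orange where called) for PHBOTO_006508 to PHBOTO_006529 in locus order. From PHBOTO_006515 to PHBOTO_006527 the starved glucose line stands 19.7 to 188 times above the starved xylose line while the exponential lines lie together. Outside the run, sko1 (PHBOTO_006508) had a called interaction of 0.60. PHBOTO_006509 (-0.20), PHBOTO_006528 (-0.98 ± 1.115) and PHBOTO_006529 (0.62) were not called.

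Nitrogen source genes moved in both directions. Of 84 uptake and use genes 23 had a positive and 23 a negative interaction, 27.4% each, with a median of -0.15. The ammonium transporter mep2 rose on both sugars and less on xylose (-1.13), being higher on xylose before starvation. It read 239, 263 and 270 CPM in exponential glucose and 638, 604 and 657 CPM in exponential xylose, then 3270, 3335 and 3355 and 3787, 3458 and 3921 CPM in starvation. The permease dal5 had -1.72 and its starved libraries overlap between the sugars. The oligopeptide transporter opt1_4 (PHBOTO_003635) fell on xylose, from 176, 200.1 and 238 to 9.44, 10.7 and 9.33 CPM, and read 8.35, 8.85 and 14.3 and 8.56, 14.6 and 7.37 CPM on glucose (-4.36 ± 0.32). The urea transporter copy dur3_2 averaged 523 ± 126 CPM in exponential xylose and under 1 CPM in every starved library. The amino acid permease dip5_2 (2.01) and the glutamate dehydrogenase gdh2 (1.06), which releases ammonium, were positive.

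The lists of protein breakdown and of oxidative stress defence had more negative than positive interactions. Of 34 autophagy and vacuolar protease genes 12 had a negative and 1 a positive interaction (median -0.20), with atg8, the ubiquitin-like protein of the autophagosome membrane, at -0.72 and the aminopeptidase ape3, a locus of the run above, at -2.70. The positive one was the vacuolar protease copy pep4_3 (1.15). Of the 34 genes, 22 rose on both sugars in starvation and 5 fell on both. Of 43 proteasome genes 11 (25.6%) were negative and 2 (4.65%) positive (median -0.13), or 4 positive without starved xylose C. Proteasome genes mostly fell, 31 of the 43 on both sugars, with median changes of -0.62 on glucose and -0.79 on xylose. Oxidative stress defence had 17 negative and 7 positive calls of 48 (11 negative without exponential glucose A, and 3 or 4 positive without starved xylose A or C, exponential glucose B or C, or any exponential xylose library), led by the peroxiredoxin ahp1 (-1.77).

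Genes for plant polymers and for the cell wall leaned to xylose. Of 36 plant polysaccharide hydrolase genes 14 (38.9%) had a positive and 6 (16.7%) a negative interaction (median 0.47). Over all genes the shares were 21.7% and 16.5%. In exponential growth 14 of the 36 were already higher on xylose, against 9.94% of all genes. PHBOTO_003675, annotated as a beta-xylanase that cuts the xylan backbone, read 5.27, 6.17 and 5.18 CPM in exponential xylose and 345, 400 and 349 CPM in starved xylose, and under 1 CPM in every glucose library. The arabinofuranosidase PHBOTO_004942 went from 21.8, 21.7 and 19.8 to 268, 306 and 264 CPM on xylose and read 4.42, 4.26 and 2.92 and 2.24, 3.2 and 3.71 CPM on glucose (4.09 ± 0.22). The polygalacturonase pgu1 had 2.26. Of 43 cell wall genes 16 (37.2%) were positive and 2 (4.65%) negative, with a median of 0.28. The negative count was 4 without starved glucose C or starved xylose B. In starvation 28 (65.1%) were higher on xylose, against 23% of all genes. The glucan synthesis gene kre6_3 was at 238, 319.5 and 311 CPM in starved glucose and 914, 854 and 910.1 CPM in starved xylose, and the chitin synthase chs3_5 had 1.76.

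Among 16 sugar transporters and sensors 5 interactions were positive and 4 negative, or 31.25% and 25%, against 21.7% and 16.5% of all genes. The maltose permease mal31 (PHBOTO_003640) fell on glucose from 43.1, 41 and 34.2 to 0.192, 0.665 and 0.567 CPM and read 3.02, 2.83 and 3.35 and 3.17, 2.19 and 4.34 CPM on xylose (6.44 ± 0.41, adjusted p = 1.71e-08). The sensor snf3 (PHBOTO_005944) read 1517, 1601 and 1423 CPM in exponential xylose and 1501, 1615 and 1804 CPM in starved xylose, where the phases overlap, but rose on glucose from 2.76, 2.65 and 3.07 to 13.2, 13.3 and 13.5 CPM (-2.13 ± 0.14). Of 20 iron and metal genes 3 were positive and 7 negative (15% and 35%), with a median of -0.19. The ferric reductase fre2, one of the 20, fell on glucose from 31.1, 30.9 and 26.8 to 0.831, 0 and 0.252 CPM.

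Histone and DNA replication genes leaned to xylose. They had 20 positive and 1 negative calls of 54, or 37.0% and 1.85% (median 0.27). The negative count was 2 without starved glucose A or C or starved xylose A. In starvation 30 (55.6%) were higher on xylose, against 23% of all genes. Regulatory lists lay nearer to the shares among all genes. Of 150 transcription factors 27 were positive and 20 negative (18% and 13.3%), and of 127 protein kinases and phosphatases 24 were positive and 22 negative (18.9% and 17.3%), with medians of 0.08 and close to 0. Beside slt2, the kinase PHBOTO_001166 rose on xylose to 163, 132 and 149.8 CPM from 11.3, 11.5 and 10.1, against 10, 12.1 and 15.6 CPM in starved glucose (3.45 ± 0.23). Storage carbohydrate had 3 positive and 4 negative of 12 (25% and 33.3%), against 21.7% and 16.5% of all genes. P450 and secondary product genes had 2 and 5 of 16 (12.5% and 31.25%), and sulfur assimilation 3 and 6 of 17 (17.65% and 35.3%). The P450 list does not hold the oxygenases PHBOTO_006516 (-6.25) and erg11_3 (-6.43, not called) of the run above.

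**Figure D5:**
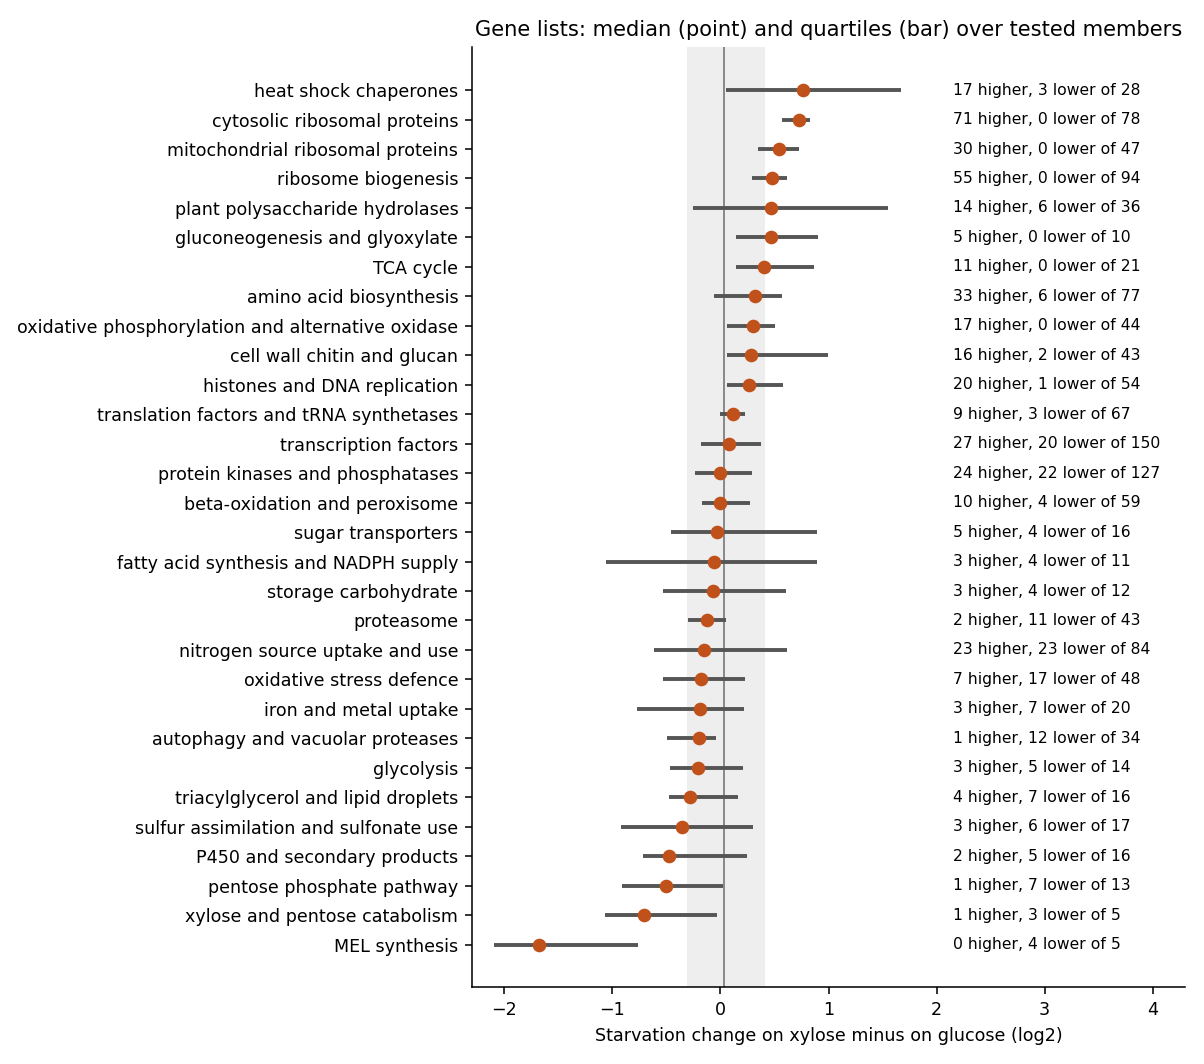
Median interaction (point) and quartiles (line) of 30 gene lists in log2 units, with the counts of positive ("higher") and negative ("lower") calls, over a grey band for the quartiles of all 5805 genes (-0.30 to 0.41). Chaperones (0.77) and cytosolic ribosomal proteins (0.73) lie at the top and MEL synthesis (-1.68) at the bottom, while most lists overlap the band.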

How the data were processed

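Gene expression was measured by RNA sequencing in 12 libraries. The deposited table gives a raw read count per locus and library, whole numbers per the file headers. It also gives the authors' normalized counts, a signal equal to each count divided by 1 size factor per library, and for 4 comparisons the authors' log2 fold change and p-value, raw and adjusted (file headers). The raw counts were used for all tests, and the authors' values only for 1 overlap count. No per-sample column was left out (0).

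Per the submitters' processing notes, reads passed through bcl2fastq 2.20.0.422 and CASAVA, Trim Galore 0.6.1 with cutadapt 2.3, and HISAT2 2.2.1, and DESeq2 was used. Per the labels' protocols the kit was stranded with poly-A selection. Which program counted reads, its strand setting, how reads matching several loci were treated, and the genome build and annotation used: none of these is given in the sources used here. Gene copies with suffixes such as _2 and antisense or overlapping loci may therefore share reads.

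All 12 libraries entered 1 edgeR 4.0.16 fit under R 4.3.3, with a coefficient for each group, TMM scaling and 8 residual degrees of freedom. filterByExpr (minimum count 10, minimum total 15, about 0.395 CPM in 3 libraries) kept 5805 of 6689 loci. The interaction, both starvation changes and both sugar differences were tested by quasi-likelihood F tests, adjusted by Benjamini-Hochberg over all 5805 genes. The SE is approximate, the absolute log2 change over the square root of F. CPM uses TMM-scaled library sizes and is not per length. The scripts were tested on simulated counts.

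Genes and lists were chosen with earlier results of these data known. A rule took the 10 largest positive and 10 largest negative interactions and the 10 opposite movers per direction with the largest smaller change, all annotated and with a group mean of at least 20 CPM, and of each of 30 lists the 3 called members with the largest interaction or, for lists with up to 8 tested members, all. The text names part of these, and further genes chosen after their values were seen. The lists are search patterns over names, cleaned of 46 misfiled loci.

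Replicate letters were checked for pairing. Of 18 same-letter pairs of libraries, 2 had deviations from their group means that correlated above 0.1 (range -0.12 to 0.171). The letters were therefore not taken to pair samples. The 0.171 was between starved glucose C and starved xylose C, the libraries where most of the 17 chaperones stood highest. No such check was made for single gene sets. Alternatives were DESeq2 size factors, other low-count filters, the DESeq2 1.42.0 Wald test, limma 3.58.1 voom with sample weights, the replicate block and each library left out. No sequences are printed.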

Additional observations from a re-analysis of the deposited data

Results flagged for a closer look

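Of the annotated opposite movers with a group mean of at least 20 CPM, the 5 per direction with the largest smaller change are given here. Opposite movers were defined by calls on both sugars and for the interaction. Passing these tests is thus part of the selection and adds no further evidence. In all 10, every starved library lay below its exponential libraries on 1 sugar and above them on the other. The first 5 fell on glucose and rose on xylose, with interactions of 4.01 ± 0.25 (log2, SE) for slt2, 1.90 ± 0.15 for pcl1, 1.80 ± 0.24 for pby1, 1.71 ± 0.27 for hsp60 and 1.60 ± 0.12 for htb2. The other 5 rose on glucose and fell on xylose, with -6.28 ± 0.50 for PHBOTO_006511, -5.32 ± 0.23 for PHBOTO_006510, -5.12 ± 0.18 for dld1, -3.25 ± 0.17 for PHBOTO_000798 and -2.87 ± 0.32 for stl1_6. The adjusted p-values (edgeR's quasi-likelihood test) ran from 8.42e-12 for dld1 to 0.000185 for hsp60. Each gene showed its direction in 3 of 3 starved libraries on each sugar, which the selection favours. hsp60 belongs to the chaperones for which starved replicate C stood highest on both sugars. PHBOTO_006511 read 1.41, 8.28 and 6.36 CPM in starved glucose, so its rise there rests on low levels. Its starved glucose replicate A was barely above exponential glucose replicate C (1.315 CPM), so the rise comes mainly from replicates B and C.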

How the results depend on the processing

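Counts of interaction calls and opposite movers stayed within 1.5 times their values under the 18 other settings, except the 9 calls changed on neither sugar, which were 3 to 5 without 7 of the libraries. The 2218 calls were 2180 with DESeq2 size factors, 2216 with no low-count filter, 2187 above 5 CPM, 2368 with DESeq2's Wald test and 2285 with limma voom. The 147 opposite movers were 147, 149, 135, 151 and 151 in the same order, and 131 to 146 of the original 147 were among them. With the replicate block there were 2162 calls and 145 opposite movers, and it ended the call of hht1 (0.36) among the genes the report names. Leaving out 1 library gave 1820 to 2552 calls (1003 to 1404 positive, 770 to 1148 negative), 501 to 686 calls of 2-fold or more, and 116 to 176 opposite movers (59 to 93 up on xylose, 55 to 83 down). The median interaction of all genes was 0.03, against 0.01 with DESeq2 size factors and -0.02 without starved xylose replicate A. Among named genes ara2, which was not called, changed sign, to 0.024 without exponential xylose replicate A, and ranged from -0.078 to 0.024 over the libraries left out; the cause was not tested. Counts of list members that moved by over 1.5 times stand beside the lists; the rest concern counts of 7 or fewer. Genes near 0 counts in a group, 12 of the calls, depend on the prior count, and differences below the starved replicates' spread are not detectable here.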

Other observations

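Outside the report's gene lists, some loci of unknown function had large interactions. PHBOTO_001497 went from under 1 CPM in every exponential library to 2837, 2937 and 2512 CPM in starved glucose and 8.4, 10.8 and 8.27 CPM in starved xylose, a starved glucose mean 302 times that of starved xylose. PHBOTO_000769 moved the other way, with 392, 739 and 2125 CPM in starved glucose and 3400, 7318 and 11180 CPM in starved xylose, from 29.2, 42.6 and 22.2 and 4.24, 5.59 and 5.31 CPM in exponential growth. Replicate C was the highest library of both starved groups, as it was for most chaperones. The drug antiporter copy yhk8_5 was high in exponential glucose alone, at 250.2, 250.2 and 262 CPM, and read under 5 CPM in every other library.

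Shorter runs of 3 or more consecutive locus numbers with called interactions of 2-fold or more in 1 direction were also present. PHBOTO_003090 to PHBOTO_003092 are the MEL genes mac1, emt1 and mac2, from -1.68 to -2.87. PHBOTO_001583 to PHBOTO_001586, annotated as a glycosyl transferase, an acyltransferase-domain protein, the polyamine transporter tpo3_2 and a glycoside hydrolase, were positive at 1.16 to 2.65. PHBOTO_000737 to PHBOTO_000739, with dak2 in the middle, were negative at -1.53 to -1.08.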
